A study of Mus musculus with 10 samples.

Results

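The testis serine proteases described here are 10 genes of the Prss family, Prss21, Prss37, Prss42, Prss43, Prss44, Prss46, Prss50, Prss51, Prss54 and Prss55. They were chosen by name, and all 10 were found among the 55421 genes of the count files. RNA-seq compared the testes of 3 wild type (Mov10+/+) and 3 Mov10-/- mice at postnatal day 21 (P21), with 1 library per pair of testes. Mov10 encodes an RNA helicase that restricts retrotransposons. The null allele came from floxed exons deleted with Actb-Cre, which acts in the whole body, so the mutant cells include germ cells and somatic cells alike. The mice were of mixed background (129 x C57BL/6 x FVB). Wild type P21 testes also gave 4 MOV10 CLIP-seq libraries, in which RNA crosslinked to MOV10 is recovered with an antibody.

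Trypsin-like serine proteases cut proteins with a catalytic triad of histidine, aspartate and serine. The testis expresses many of them in meiotic and post-meiotic germ cells, and several sit on the sperm surface or in the acrosome, the secretory vesicle of the sperm head. Some have lost a residue of the triad and are thought to act as binding partners rather than as enzymes. PRSS37 and PRSS55 are known from knockout mice for their part in the maturation of ADAM3, a sperm surface protein needed for migration into the oviduct. The first wave of spermatogenesis reaches round spermatids at about the age sampled, so that transcripts of spermatids are just appearing.

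The genes lie at 5 places in the genome (GRCm38, which is mm10). Prss42 (chr9:110798166-110803754), Prss44 (chr9:110813994-110824523), Prss43 (chr9:110826690-110831839), Prss46 (chr9:110844506-110856522) and Prss50 (chr9:110857967-110864629) form a cluster of 66.5 kb, all on the plus strand. Prss45, which is not a member, lies inside it between Prss43 and Prss46. Prss55 (chr14:64075438-64090162, minus strand) and Prss51 (chr14:64086234-64097678, plus strand) overlap by 3929 bases on opposite strands, but no exon of either overlaps an exon of the other. Prss21 is at chr17:23868056-23873114 (plus strand), Prss37 at chr6:40514824-40519508 (minus strand) and Prss54 at chr8:95559069-95576340 (minus strand).

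The stretch around the active-site serine differed between the members in its coding bases. A search of the coding sequences for a conserved cysteine followed by the serine position found it in 9 of the 10 members, each time across an exon junction. The 30 coding bases from the cysteine codon are given 5′ to 3′ with the codon at the serine position in capitals. The coordinates run from the first to the last base and include the intron that is spliced out.
Prss21 (chr17:23872520-23872818, plus strand): tgctttggtgacTCGggaggacccttggcc
Prss42 (chr9:110800966-110803018, plus strand): tgccagggagatTCTggaggcccgatgtcc
Prss43 (chr9:110829540-110830805, plus strand): tgttggggagatTCTgggaacccccttgtc
Prss44 (chr9:110816566-110817112, plus strand): tgccagggagatTCTgggggccccctggtc
Prss46 (chr9:110851473-110856023, plus strand): tgtcaggacaccTCCggaagctctctggtt
Prss50 (chr9:110863891-110864304, plus strand): tgctatgagataACTggcgagcccctggtc
Prss51 (chr14:64097189-64097390, plus strand): tgccagggagacAGCggggcacccatggtc
Prss54 (chr8:95559799-95564355, minus strand): tgcctgggggaaCCAggaagccctatgatg
Prss55 (chr14:64075771-64077086, minus strand): tgccagggtgacAGTgggggaccgcttgtc

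A serine codon stood at that position in 7 members. Prss50 has a threonine codon there and Prss54 a proline codon, and the search found no such stretch in Prss37. The stretch around the active-site histidine was found in all 10, with a histidine codon in 9 and a serine codon in Prss54. Both triad codons searched were therefore present in 7 members, namely Prss21, Prss42, Prss43, Prss44, Prss46, Prss51 and Prss55. Coding sequences ran from 714 bases in Prss37 to 1320 bases in Prss50. Within the chromosome 9 cluster, Prss43 and Prss44 were identical at 69.6% of 1055 aligned coding bases, and Prss42 and Prss44 at 68.6% of 976. No word of 50 bases in any member's transcripts occurred in a transcript of another gene, on either strand.

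The RNA-seq libraries held 5083407 to 9230540 reads on genes, the lowest in Mov10-/- replicate 3, where 57.2% of reads were not aligned against 26.5% to 35.9% in the others. A count of 0 allowed up to 0.325 to 0.590 CPM (reads per 1000000 reads on genes), and intervals and limits of this kind cover counting error only. Of the genes above 1 CPM in at least 3 of 6 libraries, 20240 were tested. Values below in CPM are scaled with TMM factors. Markers of spermatocytes, spermatogonia and somatic testis cells were present in every library, except that Rhox5 of Sertoli cells had 1 read in all 6 and Insl3 of Leydig cells had 1 to 6 reads per library. The median log2 fold change was 0.25 over spermatogonia markers, 0.25 over Leydig, 0.33 over peritubular and 0.27 over macrophage markers.

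Mov10 itself followed the labels. It stood at 113.6, 96.4 and 119.2 CPM in wild type replicates 1, 2 and 3 and at 29.0, 26.6 and 26.7 CPM in Mov10-/- replicates 2, 3 and 4. The log2 fold change was -2.0 ± 0.12 (SE), with an adjusted p of 0.00552 in edgeR's quasi-likelihood test. Without Mov10-/- replicate 3 or replicate 4 the adjusted p was 0.106 or 0.143, at log2 fold changes of -1.98 in both. It was the only gene called by this test at an adjusted p under 0.05 and a fold change over 2, which is 0.00494% of the genes tested (0% were called higher).

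Of the 10 members, 8 passed the filter and were tested, and 7 of the 8 had a negative log2 fold change. None of the 8 was called by the quasi-likelihood test, and their adjusted p ran from 0.150 to 0.756. At an unadjusted p under 0.05 there were 5 lower members and 1 higher, where 11.9% of all genes tested were lower and 5.57% higher by that rule. A fold change over 2 in the lower direction was fitted for 3 members (9.78% of all genes). The 3 Mov10-/- libraries all lay below the 3 wild type libraries for 5 of the 8 (14.1% of all genes) and all above for 1 (11.9% of all genes). DESeq2 called 3 members lower, Prss46, Prss54 and Prss55 (4.88% of all genes), edgeR's exact test called 3 lower (5.09%), limma voom called 0 (0.00494% lower over all genes), and the quasi-likelihood test with a replicate block called 1, Prss55 (0.716%). The median log2 fold change was -0.53 over the 8 and 0.03 over all genes tested. Prss55 entered the test only through its wild type libraries and so had to be lower, and these counts describe the members and support nothing beyond that. The fold changes below follow an order, from members at or near 0 reads in Mov10-/- testes to Prss50, which was higher there.

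**Figure D1:**
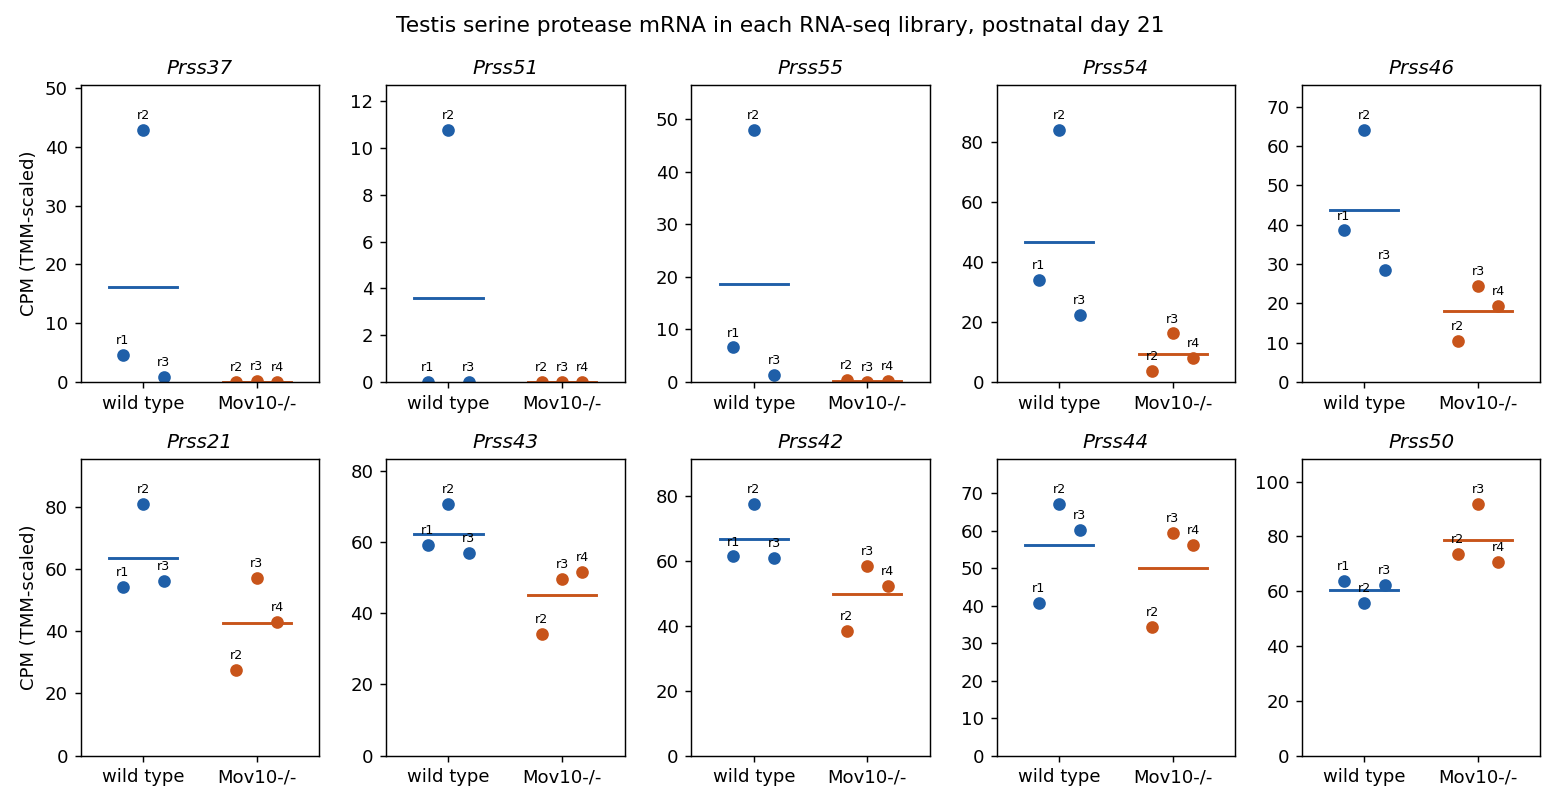
TMM-scaled CPM (vertical axis, from 0) of each of the 10 members in the 3 wild type (blue) and 3 Mov10-/- (orange) libraries, with r1 to r4 the replicate numbers and horizontal lines the genotype means. Wild type replicate 2 is the highest library for 9 members, and Prss37, Prss51 and Prss55 sit at or near 0 in all Mov10-/- libraries.

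Prss37, Prss51 and Prss55 had at most 3 reads in any Mov10-/- library. Prss55, a sperm protease anchored in the membrane and needed for male fertility in mice, had 56, 351 and 13 reads in wild type replicates 1, 2 and 3 and 3, 0 and 1 reads in Mov10-/- replicates 2, 3 and 4. This is 6.56, 47.8 and 1.39 CPM against 0.370, 0 and 0.123 CPM. The genotypes did not overlap, but wild type replicate 2 was 34.4 times wild type replicate 3. The log2 fold change was -6.52 ± 1.54 (SE), with an adjusted p of 0.150 in the quasi-likelihood test and 0.00357 in DESeq2, which gave 0.0606 without Mov10-/- replicate 4. Over the summed reads of each genotype, the wild type level was 87.3 times the Mov10-/- level (420 against 4 reads, 95% exact counting interval 33.8 to 322). Wild type replicate 2 held 351 of these 420 reads, and without it the ratio was 20.5 (69 against 4 reads, interval 7.66 to 77.5) and the log2 fold change in DESeq2 was -4.45 against -6.78 with all libraries. That DESeq2 fit kept Prss55 although the gene fails the filter without wild type replicate 2.

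Prss37, whose protein carries no full catalytic triad, failed the filter. It had 39, 314 and 8 reads in wild type replicates 1, 2 and 3 and 0, 1 and 0 reads in Mov10-/- replicates 2, 3 and 4, or 4.57, 42.8 and 0.855 CPM against 0, 0.205 and 0 CPM. All 3 wild type libraries lay above all 3 Mov10-/- libraries, with an exact two-sided permutation p of 0.1, the smallest that 3 against 3 allows. The ratio of the summed reads was 300.1 (361 reads against 1, 95% exact counting interval 53.5 to 11885). Wild type replicate 2 held 314 of the 361 wild type reads, and without it the ratio was 55.9 (47 reads against 1, interval 9.56 to 2255). Without the filter on low counts, its log2 fold change was -7.97 with an adjusted p of 0.066 in the quasi-likelihood test.

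Prss51, the neighbour of Prss55, had all of its 79 reads in wild type replicate 2, which is 10.8 CPM there. The other 5 libraries had 0 reads, so that the genotypes overlapped at 0. Against the limit of 3 reads over the Mov10-/- group, the summed wild type level was at least 21.9-fold higher, and this value rests on wild type replicate 2 alone. Without that library there is no read to compare.

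Prss54, an acrosomal protein with neither triad codon searched, was detected in every library. It stood at 34.0, 83.8 and 22.5 CPM in wild type replicates 1, 2 and 3 and at 3.58, 16.2 and 7.99 CPM in Mov10-/- replicates 2, 3 and 4. Every Mov10-/- library lay below every wild type library, but the gap between 16.2 and 22.5 CPM was smaller than the spread within either genotype. The means were 46.8 ± 32.6 and 9.24 ± 6.38 CPM (SD, n = 3 each), a log2 fold change of -2.37 ± 0.64 (SE). The adjusted p was 0.153 in the quasi-likelihood test and 0.00299 in DESeq2, and DESeq2 gave 0.0786 without wild type replicate 2.

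Prss46, a member of the chromosome 9 cluster, stood between these genes and the rest. It had 38.6, 64.1 and 28.4 CPM in wild type replicates 1, 2 and 3 and 10.5, 24.3 and 19.3 CPM in Mov10-/- replicates 2, 3 and 4. The genotypes did not overlap, with 24.3 CPM the highest Mov10-/- value and 28.4 CPM the lowest wild type value. The log2 fold change was -1.28 ± 0.38 (SE), with an adjusted p of 0.170 in the quasi-likelihood test. DESeq2 gave an adjusted p of 0.0246 with all libraries, and of 0.162, 0.110 and 0.267 without Mov10-/- replicate 2, Mov10-/- replicate 4 and wild type replicate 2.

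The other members showed differences below 2-fold. Prss21 encodes testisin, a protease that is held in the sperm membrane by a glycosylphosphatidylinositol (GPI) anchor. It had 54.2, 81.0 and 56.1 CPM in wild type replicates 1, 2 and 3 and 27.7, 57.1 and 43.1 CPM in Mov10-/- replicates 2, 3 and 4, so that Mov10-/- replicate 3 lay within the wild type range. Its log2 fold change of -0.59 ± 0.27 (SE) had an adjusted p of 0.316 in the quasi-likelihood test.

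Prss42, Prss43 and Prss44 are testis-specific proteases that lie side by side on chromosome 9, and Prss42 and Prss43 have been tied to meiosis. Prss42 had 61.4, 77.6 and 60.9 CPM in wild type replicates 1, 2 and 3 and 38.4, 58.5 and 52.2 CPM in Mov10-/- replicates 2, 3 and 4. Prss43 had 59.1, 70.6 and 57.0 CPM against 34.2, 49.5 and 51.5 CPM in the same order. Both were lower in every Mov10-/- library than in any wild type library, Prss42 by the small gap from 58.5 to 60.9 CPM, with log2 fold changes of -0.43 ± 0.18 and -0.47 ± 0.18 (SE) and adjusted p of 0.282 and 0.246 in the quasi-likelihood test. Prss44 overlapped between genotypes, at 40.8, 67.1 and 60.2 CPM in wild type and 34.2, 59.3 and 56.2 CPM in Mov10-/- libraries. Its log2 fold change was -0.17 ± 0.25 (SE, adjusted p = 0.756 in the quasi-likelihood test), and it was 0.040 without Mov10-/- replicate 2.

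Prss50, the gene with a threonine codon at the serine position, was the only member tested with a positive log2 fold change. It had 63.7, 55.9 and 62.2 CPM in wild type replicates 1, 2 and 3 and 73.6, 91.9 and 70.6 CPM in Mov10-/- replicates 2, 3 and 4. All Mov10-/- libraries lay above all wild type libraries. The log2 fold change was 0.37 ± 0.13 (SE), with an unadjusted p of 0.0227 and an adjusted p of 0.214 in the quasi-likelihood test. Without Mov10-/- replicate 3, the library with the highest value, it was 0.25 (adjusted p = 0.346 in the quasi-likelihood test). This was its lowest value in that test with a library left out. Prss50 was also the only member whose lowest library was wild type replicate 2, at 55.9 CPM.

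**Figure D2:**
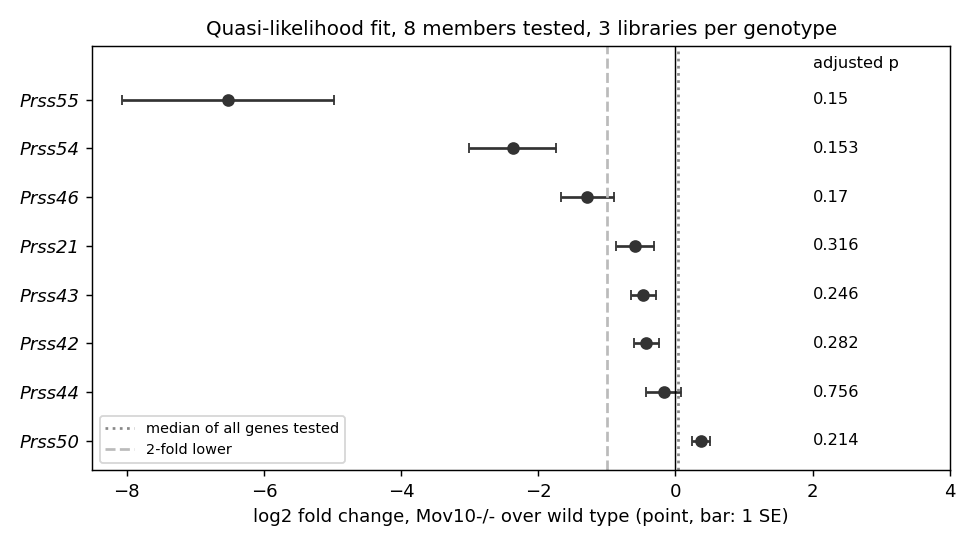
Log2 fold change of Mov10-/- over wild type (horizontal axis) for the 8 members tested, with bars of 1 SE and the adjusted p of the quasi-likelihood test at the right. The members run from -6.52 for Prss55 to 0.37 for Prss50, 3 of them lie beyond 2-fold lower, and no adjusted p is under 0.05.

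In the chromosome 9 cluster, Prss46 was lower in Mov10-/- libraries and its neighbour Prss50 higher, by the values above. The pairs of neighbours were compared after their values had been seen, as the log2 ratio of reads within each library, in which the library's scaling cancels. For Prss46 over Prss50 the ratio was -0.72, 0.20 and -1.13 in wild type replicates 1, 2 and 3 and -2.81, -1.92 and -1.87 in Mov10-/- replicates 2, 3 and 4. The Mov10-/- mean was lower by 1.65 on the log2 scale (-2.20 ± 0.53 against -0.55 ± 0.68, SD, n = 3 each). The ratio of Prss45 to Prss46 likewise did not overlap and was higher by 1.29 in Mov10-/- libraries. Both had an exact two-sided permutation p of 0.1, the smallest this design allows, and 0.2 after Benjamini-Hochberg adjustment over the 5 pairs. The ratios of Prss42 to Prss44, Prss44 to Prss43 and Prss43 to Prss45 overlapped between genotypes.

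**Figure D3:**
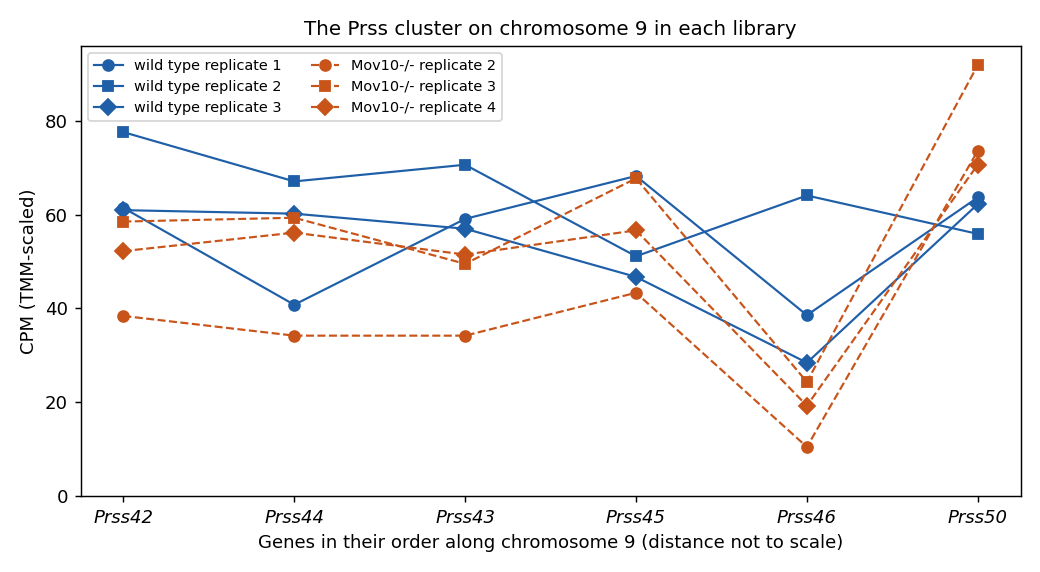
TMM-scaled CPM (vertical axis, from 0) of the 6 Prss genes of the chromosome 9 cluster in their genomic order, 1 line per library, wild type solid blue and Mov10-/- dashed orange. At Prss46 all Mov10-/- lines lie below all wild type lines (10.5 to 24.3 against 28.4 to 64.1 CPM), and at Prss50 they lie above (70.6 to 91.9 against 55.9 to 63.7 CPM).

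The genes around the members gave no call by either test run on them. Of the 22 protein-coding genes that are not members and lie within 50 kb of one or inside the cluster, 12 were tested, and by the quasi-likelihood test 0 had an unadjusted p under 0.05 in either direction (11.9% lower and 5.57% higher over all genes). DESeq2 called 0 of the 12. Their median log2 fold change was 0.13. Prss45 had a log2 fold change of 0.01 ± 0.21 (SE, adjusted p = 0.985 in the quasi-likelihood test). Prss52, the next Prss gene beyond Prss51 on chromosome 14, failed the filter, and had 15, 126 and 0 reads in wild type replicates 1, 2 and 3 and 1, 2 and 0 reads in Mov10-/- replicates 2, 3 and 4. As with Prss51, most of its reads were in wild type replicate 2.

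Levels of different genes were compared as reads per kilobase of exon scaled to the library's reads on genes (RPKM). In wild type testes the order of the means was Prss42 (41.9 ± 4.7 RPKM, SD, n = 3), Prss50 (41.6 ± 4.0), Prss46 (32.2 ± 12.5), Prss21 (28.5 ± 5.8), Prss43 (26.6 ± 2.3), Prss54 (23.1 ± 15.4), Prss44 (15.8 ± 3.5), Prss37 (13.9 ± 19.9), Prss55 (12.9 ± 17.4) and Prss51 (2.78 ± 4.82 RPKM). The range of every member over the wild type libraries overlapped with that of the next in this order. These ranges do not compare the genes within a library. Prss55, for example, had more reads than Prss51 in each wild type library (56, 351 and 13 against 0, 79 and 0 in replicates 1, 2 and 3). With the longest transcript as length in place of the union of exons, Prss44 stood at 30.3 RPKM. In Mov10-/- testes Prss50 came first at 54.0 ± 6.0 RPKM, above Prss42 at 31.3 ± 5.6 RPKM, and the ranges of these genes did not overlap there (49.2 to 60.7 against 25.0 to 35.5 RPKM). Prss54 was at 4.57 ± 3.00 RPKM, and Prss55, Prss37 and Prss51 were at 0.120, 0.0584 and 0 RPKM.

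The scale of these levels was narrow at its upper end. Over genes with at least 500 exon bases, the 99.9th percentile was 530 to 706 reads per kb per library, and mt-Co1, a mitochondrial mRNA, had 1.41 to 1.67 times the reads per kb of Dync1h1. Prss42 and Prss50 stood at a mean of 350.0 and 351 reads per kb in wild type libraries, at percentiles 96.4 and 96.1 of the genes tested. The RPKM levels and their order above are on this narrow scale, which may understate differences between abundant genes. Whether duplicate reads were removed before counting is not given in the sources used here, and the part of the narrow scale in the levels and fold changes was not tested.

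Spermatid markers moved with the same libraries as the members that differed most. All 14 of the 15 listed spermatid markers that were tested had a negative log2 fold change (median -2.24), and 13 had an unadjusted p under 0.05 (11.9% of all genes were lower by that rule). DESeq2 called 12 of the 14 lower (4.88% of all genes). Cabs1, included in each of these counts, passed the filter only through its wild type libraries and so had to be lower. The summed level of the 15 markers was 421, 1063 and 258 CPM in wild type replicates 1, 2 and 3. In Mov10-/- replicates 2, 3 and 4 it was 64.0, 230.4 and 96.3 CPM. Among the 15 listed spermatid markers, Tnp2 was at 0 reads in Mov10-/- replicate 2, and no other of these 15 was at 0 in any library. The order of the libraries by this sum was also their order by Prss54 CPM and by Prss46 CPM. Spermatocyte markers summed to 1521 to 1552 CPM in wild type and 1406 to 1706 CPM in Mov10-/- libraries, and 0 of 12 had an unadjusted p under 0.05 in the quasi-likelihood test (0 were called by DESeq2). In bulk testis, fewer cells of a type and less RNA per cell cannot be told apart, and the part of the spermatid markers in the members' differences was not tested.

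**Figure D4:**
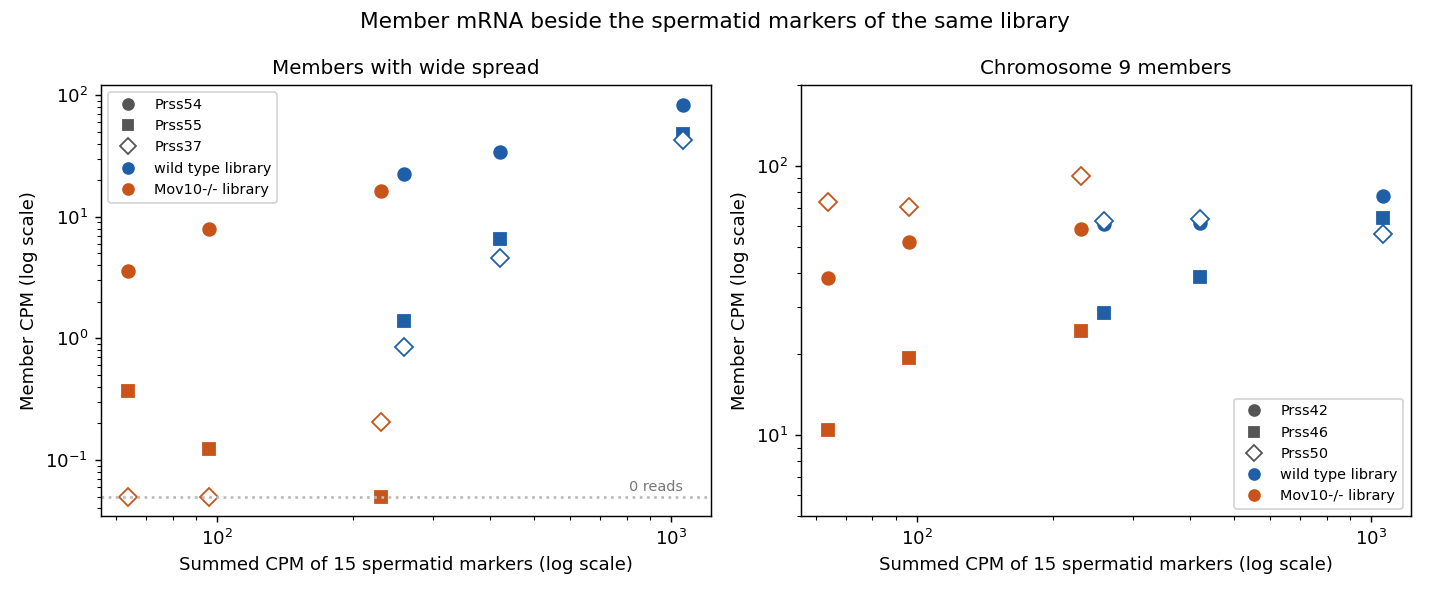
Member CPM (vertical axis, log scale) against the summed CPM of 15 spermatid markers in the same library (horizontal axis, log scale), 1 point per library, with 0 reads drawn at the dotted line. Prss54, Prss37 and Prss46 are highest where the marker sum is highest (1063 CPM, wild type replicate 2), whereas Prss50 is lowest there.

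Wild type replicate 2 and Mov10-/- replicate 2 set much of the spread. Wild type replicate 2 was the highest of the 6 libraries for 9 of the 10 members, and Mov10-/- replicate 2 was the lowest, or tied for it at 0 reads, for 8. Mov10-/- replicate 2 also held the most epididymal RNA, with a sum of 107 CPM over 6 epididymis markers, against 0.614 to 34.5 CPM in the other libraries, and the part of this in the members' values was not tested. Without wild type replicate 2, Prss54 had a log2 fold change of -1.65, Prss46 of -0.90 and Prss21 of -0.38, and Prss55 no longer passed the filter. Without Mov10-/- replicate 2, the median over the 8 members was -0.33.

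The rest of the Prss family had more positive than negative log2 fold changes. Of 29 other Prss genes, 17 were tested, 7 with a negative log2 fold change, and 2 had an unadjusted p under 0.05, both lower, against 11.9% of all genes. Their median log2 fold change was 0.07. The most abundant by RPKM were Prss39 (-0.70 ± 0.26, adjusted p = 0.230 in the quasi-likelihood test), Prss45, given above, and Prss35 (0.29 ± 0.19, adjusted p = 0.464). The other lower gene was Prss40, named after its values were seen, at a log2 fold change of -1.47 (adjusted p = 0.150 in the quasi-likelihood test). It was the only 1 of the 17 called by DESeq2 (adjusted p = 0.00679), where 4.88% of all genes were called lower.

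Genes listed as other sperm proteases and the partners in ADAM3 maturation had medians closer to 0 than the members tested. The first list holds ADAM family genes, and whether each of its genes encodes an active protease was not tested. Of its 12 genes, all tested, 10 had a negative log2 fold change, with a median of -0.23. The most abundant were Adam3 (-0.15 ± 0.20), Adam2 (-0.17 ± 0.16) and Adam32 (-0.22 ± 0.18, SE), none with an adjusted p under 0.576 in the quasi-likelihood test. DESeq2 called 2 of the 12 lower (4.88% of all genes), Adam24 and Adam1a, named after their values were seen. Of 16 genes of ADAM3 maturation and sperm migration, 13 had a negative log2 fold change (median -0.19), 3 had an unadjusted p under 0.05 in the lower direction and 1 in the higher, where 11.9% and 5.57% of all genes were. Cmtm2b, with Adam3 and Adam2 the most abundant of this list, was at -0.08 ± 0.19 (SE, adjusted p = 0.852 in the quasi-likelihood test). In this list 2 of the 16 genes were called lower by DESeq2 (4.88% of all genes), Adam1a and Pdilt. Pdilt, a testis chaperone known as a partner of PRSS37, was named after its values were seen. Its log2 fold change was -2.63, with an adjusted p of 0.150 in the quasi-likelihood test and 0.000956 in DESeq2. Its highest library was wild type replicate 2.

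Inhibitors of serine proteases leaned the other way in their values. Of 13 tested of 15, 3 had a negative log2 fold change, the median was 0.35, and 2 had an unadjusted p under 0.05, both higher (5.57% of all genes). Spink2, an inhibitor of the acrosome, was at -0.05 ± 0.21 (SE, adjusted p = 0.916 in the quasi-likelihood test). Serpina5, which inhibits proteases of seminal fluid and the sperm surface, was at 0.35 ± 0.12 (SE, adjusted p = 0.212). Serping1, the inhibitor of complement C1, was at 0.22 ± 0.12 (SE, adjusted p = 0.400). Spink8 and Spink10, named after their values were seen, had 284 and 136 reads in Mov10-/- replicate 2, the library with the most epididymal RNA, against 6 and 1 in replicate 3 and 15 and 2 in replicate 4. Without them the median of the list was 0.22. Sertoli markers were likewise positive in 9 of 9 tested, with a median of 0.35 and sums of 607 to 747 CPM in wild type and 781 to 908 CPM in Mov10-/- libraries, and the part of these in the inhibitors' values was not tested. The 8 genes of GPI anchor attachment and remodelling found, of 10 listed, had a median of 0.12 with 0 at an unadjusted p under 0.05 in the quasi-likelihood test and 0 called by DESeq2. The most abundant were Pigs (0.16), Pigt (0.25) and Gpaa1 (0.17), all subunits of the enzyme that attaches the anchor.

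The mean profile of the 8 tested members, standardised over the 6 libraries, lay closest to Prss42 and Prss21 (Pearson r = 0.997 and 0.996) and farthest from Prss50 (r = -0.45). Prss46, Prss54 and Prss43 had r of 0.97, 0.96 and 0.96, and Prss44 and Prss55 of 0.77 and 0.71. Each of these members is itself part of the mean, which raises its r. The protein-coding genes most like the mean profile among those that are not members were Fbxw10, Cetn4, Bpi, Ttll6 and Cfap43, with r from 0.998 to 0.999. Fbxw10 stood at 86.4, 140.3 and 117.5 CPM in Mov10-/- replicates 2, 3 and 4 and at 139.5, 191.8 and 137.5 CPM in wild type replicates 1, 2 and 3. The correlations share the same 6 libraries and their scaling, and 10.7% of 15731 protein-coding genes tested had an r over 0.9.

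MOV10 CLIP-seq gave next to no reads on the members. The 4 libraries held 3404 to 4934 reads on genes, and 99.5% to 99.6% of their reads were not aligned. Replicates 1, 2 and 3 differed by less than the sampling noise and are not taken as separate samples, though counts are given per library. Prss37 had 1 read in each of replicates 1, 2 and 3, taken as 1 observation, and 0 in replicate 5. The other 9 members had 0 reads in all 4 libraries. A count of 0 allowed up to 608 to 881 CPM. This is far above the 3.59 to 66.6 CPM at which the members stood on average in wild type RNA-seq. For the 9 members without a read, CLIP-seq levels up to that limit therefore remained possible.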

How the data were processed

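RNA-seq (3 wild type, 3 Mov10-/-) and MOV10 CLIP-seq (4 wild type libraries) of P21 testes were used. The authors deposited read counts per Ensembl gene without normalization; their methods name STAR, mm10 and htseq-count for RNA-seq, without the strand setting or any removal of duplicates. Reads naming no gene (52.8% to 71.7% of RNA-seq reads, 99.9% or more of CLIP-seq reads) were left out. Symbols, coordinates and lengths came from GENCODE vM21 (GRCm38), not the authors' Ensembl v99.

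Counts were fitted with edgeR 4.0.16 (TMM, quasi-likelihood test, genes above 1 CPM in at least 3 of 6 libraries, Benjamini-Hochberg over all genes tested, called at adjusted p under 0.05 and fold change over 2). DESeq2 1.42.0, the exact test, limma 3.58.1 (voom), other normalizations and filters, a replicate block and leaving out libraries were alternatives. On simulated counts for 20767 genes, of 187 tested genes changed 4-fold the quasi-likelihood test recovered 132 with 3 others called, and DESeq2 149 with 33 others. Genes were simulated independently, without differences shared by many genes of a library, so these recoveries need not hold for the real libraries. RPKM used the union of exons. Correlations and permutation tests used log2(CPM + 0.5).

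The members and lists were chosen with earlier results of these data known. Named genes were all members and Mov10, the 3 most abundant genes of each list by wild type RPKM, any passing the adjusted p, neighbours within 50 kb, and the 5 most similar genes. RNA-seq replicates were separate pairs of testes per the authors' methods.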

Additional observations from a re-analysis of the deposited data

How the results depend on the processing

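The count of 0 members called by the quasi-likelihood test held under RLE, upper-quartile and library-total scaling, without the filter on low counts, at a minimum of 5 CPM, with limma voom and without any of the 6 libraries. DESeq2 and the exact test each called 3. DESeq2 with each library left out, chosen after seeing the data, called 1 to 3. It called 1, Prss55, without wild type replicate 2 and 1, Prss54, without Mov10-/- replicate 4. These DESeq2 fits kept the genes that passed the filter with all 6 libraries. Prss55 fails the filter without wild type replicate 2, so its call there rests on a filter passed through the library left out. The block on the replicate number called 1. Only replicate numbers 2 and 3 occur in both genotypes. Same-numbered libraries had correlations of their deviations of -0.47 and -0.35, which show no likeness between them. These values are too few to settle whether the numbers pair libraries. The block moved the calls over all genes from 1 lower and 0 higher to 145 and 36. The median log2 fold change of the members tested was -0.96 with no filter, where Prss37 and Prss51 enter, and -0.72 to -0.33 with a library left out. The members without overlap numbered 5 to 7 of 7 or 8 tested when a library was left out, against 6 of 8, while the share of all genes without overlap was 28.9% to 41.1%, against 26%. Prss44 was at -0.50 under the block. With a library left out it ran from -0.37 without wild type replicate 1 (-0.38 in DESeq2) to 0.040 without Mov10-/- replicate 2, where its sign changed (0.021 in DESeq2). Calls over all genes were 1 lower by the quasi-likelihood test, 988 by DESeq2 and 1031 by the exact test, and the cause was not tested. With the longest transcript as length, wild type Prss21 stood at 39.6 RPKM and Prss44 at 30.3 RPKM. With 3 libraries per genotype, genes near 0 reads in Mov10-/- testes carry folds that depend on the prior count. The few CLIP-seq reads on genes limit any statement on binding.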
